A study of Mus musculus with 4 samples.

Results

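The enzymes that hydroxylate and crosslink collagen were followed across RNA-seq libraries of B16F10 melanoma cells, a mouse melanoma line. They were 10 genes, taken by symbol from a table of read counts for 24527 genes: the prolyl 4-hydroxylase genes P4ha1, P4ha2 and P4hb, the lysyl hydroxylase genes Plod1, Plod2 and Plod3, and the lysyl oxidase genes Lox, Loxl1, Loxl2 and Loxl3. Levels are given in CPM, the reads of a gene scaled to a common library total. All 10 genes averaged at least 1 CPM over the libraries, as did 12728 genes in all, but Lox and Loxl1 did so only through the libraries in which they were high.

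There were 4 libraries, 1 for each condition, so differences between conditions have no replicate check and carry no p-value. The spheroid library came from B16F10 cells grown in 3D with NIH/3T3 cells, a mouse fibroblast line. The 2D co-culture library came from B16F10 cells grown flat with NIH/3T3 cells, and the 2D monoculture library from B16F10 cells grown alone. The tumor library came from B16F10 tumors grown under the skin of 1-year-old female C57BL/6 mice. The genotype label of all libraries was WT. According to the methods, the B16F10 cells carried green fluorescent protein and were isolated from the cultures by a sort on that colour, and the NIH/3T3 cells of the spheroids were red fluorescent. For the tumor the methods also describe sorted cells, whereas the label describes snap-frozen tumor. Whether the RNA of several cultures or animals was pooled into a library is not given in the sources used here.

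Collagen chains are modified before they leave the cell and crosslinked after. Prolyl 4-hydroxylases, tetramers of P4HA catalytic chains and the P4HB chain (protein disulfide isomerase), hydroxylate proline so that the triple helix is stable at body temperature. Lysyl hydroxylases, encoded by the Plod genes, hydroxylate lysine, which sets the sites for sugars and for the more durable crosslinks, and the secreted copper enzymes of the lysyl oxidase family oxidise lysine and hydroxylysine so that neighbouring collagen and elastin molecules bind covalently. In solid tumors the same enzymes are known for stiffening the matrix, and P4ha1, P4ha2, Plod2, Lox and Loxl2 are known targets of hypoxia-inducible factors.

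The libraries held between 118896900 and 150028663 reads, and the 10 genes took between 0.157% and 0.248% of them. All 8 melanocyte markers were at or above 1 CPM in every library, with summed levels from 11420 CPM in the spheroid to 20122 CPM in the tumor. Markers of host cells were high in the tumor library: the 10 myeloid markers summed to 2213 CPM there and to between 10.8 and 30.0 CPM in the cultures, the 6 endothelial markers to 244 CPM and between 1.23 and 4.55 CPM, and the 5 skeletal muscle markers to 4599 CPM and between 3.28 and 12.4 CPM. The 9 fibroblast markers summed to 19.7 CPM in 2D monoculture, 37.4 in spheroid, 683 in 2D co-culture and 3194 in tumor. In such bulk RNA, fewer cells of a type and less RNA per cell cannot be told apart.

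Promoter sequences were at hand for 5 of the 10 genes (P4ha1, P4ha2, P4hb, Plod1 and Plod3), from RefSeq on GRCm38.p6, and not for Plod2, Lox, Loxl1, Loxl2 and Loxl3. They were searched for ACGTG, the core of the site that hypoxia-inducible factors bind, on either strand (CACGT on the other), within 250 bases before the RefSeq start of the gene. Such a match stood in the windows of 4 of the 5 genes (P4ha1, P4ha2, P4hb and Plod3) and none was found in the window of Plod1. By comparison, 16.6% of 32851 promoter windows held the same letters, as did 21.5% of the 12591 windows of genes averaging 1 CPM or more. Shown here are both catalytic prolyl 4-hydroxylase genes, whose levels went opposite ways between spheroid and tumor, and Plod1, which has no match; capitals mark the match, each sequence reads 5′ to 3′ towards the gene, and none of these bases lies in an exon of the GENCODE annotation, in which the P4ha2 gene starts further upstream, so that its window lies within the gene.
P4ha1, chr10:59323046-59323295, plus strand: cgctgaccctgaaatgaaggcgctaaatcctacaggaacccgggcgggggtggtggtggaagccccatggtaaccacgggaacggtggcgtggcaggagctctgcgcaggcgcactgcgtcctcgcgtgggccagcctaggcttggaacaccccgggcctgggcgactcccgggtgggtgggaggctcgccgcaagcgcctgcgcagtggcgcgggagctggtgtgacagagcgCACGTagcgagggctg
P4ha2, chr11:54100674-54100923, plus strand: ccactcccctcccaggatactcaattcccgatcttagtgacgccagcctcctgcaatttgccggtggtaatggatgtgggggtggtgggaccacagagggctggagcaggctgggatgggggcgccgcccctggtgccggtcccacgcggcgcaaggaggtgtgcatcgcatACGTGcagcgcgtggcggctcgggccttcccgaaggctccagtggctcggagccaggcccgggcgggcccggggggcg
Plod1, chr4:147936777-147937026, minus strand: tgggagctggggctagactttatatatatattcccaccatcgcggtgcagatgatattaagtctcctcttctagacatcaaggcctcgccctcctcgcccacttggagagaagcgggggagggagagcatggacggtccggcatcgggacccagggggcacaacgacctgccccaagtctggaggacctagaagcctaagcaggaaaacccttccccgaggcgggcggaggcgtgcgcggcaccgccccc

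The match began 16 bases before the RefSeq start in P4ha1 and 78 bases before it in P4ha2, and in windows not shown 56 bases before it in P4hb and 54 bases before it in Plod3. A match is a description of the letters only, and no binding was measured here.

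Read counts were scaled to CPM with TMM factors, and a gene was counted as higher or lower when its CPM, with 1 CPM added to both values, differed by more than 2-fold. Against the 2D monoculture, none of the 10 genes was higher (11.2% of all genes were) or lower (17.9%) in the spheroid. Lox and Loxl1 were higher in the 2D co-culture (3.79% of all genes) and none was lower (9.51%). Plod2, Lox, Loxl1 and Loxl2 were higher in the tumor (14.8% of all genes) and none was lower (18.2%).

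Between the spheroid and the tumor, 4 of the 10 genes were higher in the spheroid (P4ha2, Plod1, Plod3 and Loxl3), beside 26.8% of all genes, and 4 were lower (Plod2, Lox, Loxl1 and Loxl2), beside 27.6%. None of the 4 higher genes was called with libraries scaled by total counts or with a correction for GC content and length, and the correction also ended the call of Plod2. Between the 2D co-culture and the tumor, none was higher (18.8% of all genes) and 3 were lower (P4ha1, Plod2 and Loxl2), beside 20.9%. Between the spheroid and the 2D co-culture, none was higher (9.54%) and 2 were lower (Lox and Loxl1), beside 8.46%. These comparisons share libraries and are not independent of each other. Summed over the 10 genes, the level was 1735 CPM in spheroid, 2270 in 2D co-culture, 2218 in 2D monoculture and 2129 in tumor.

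The median log2 ratio of the 10 genes (1 CPM added) was 0.55 for the spheroid against the 2D monoculture, beside 0.05 over all genes, and -0.62 for the spheroid against the tumor, beside 0.08. Against the 2D monoculture it was 0.08 for 2D co-culture, beside 0.01 over all genes, and 0.09 for tumor, beside -0.14. The remaining medians were 0.01 for the 2D co-culture against the tumor, beside 0.11, and 0.37 for the spheroid against the 2D co-culture, beside -0.01. Between spheroid and tumor the median of the 10 genes moved to -0.98 with total counts and to -0.25 with the correction for GC content and length. That of the 2D co-culture against the tumor moved to -0.36 with the correction, and that of the tumor against the 2D monoculture to 0.42.

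**Figure D1:**
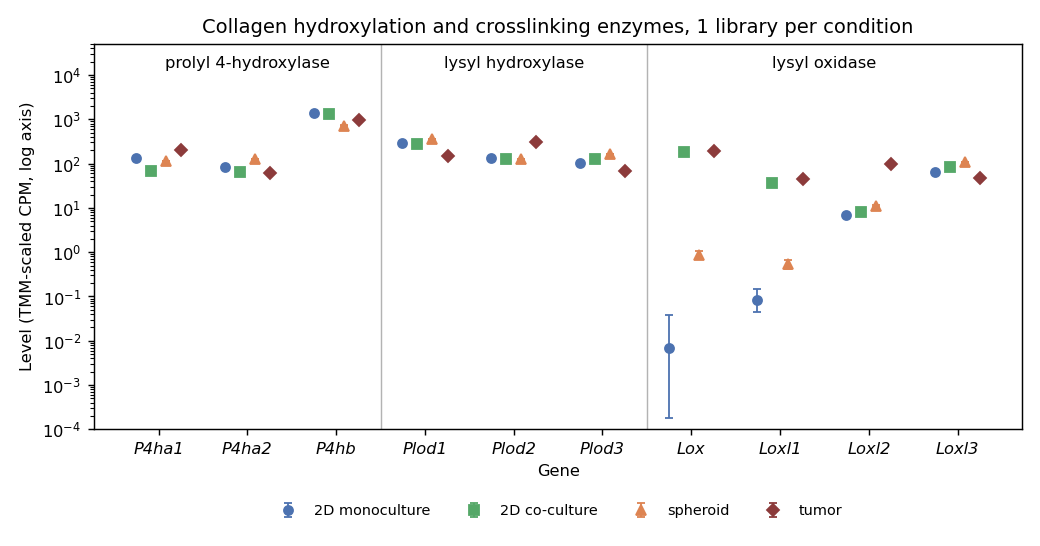
Level of each gene (x axis) in TMM-scaled CPM on a log axis (y axis), with 1 point per library and bars for the 95% counting interval. Lox and Loxl1 lie below 1 CPM in the 2D monoculture and the spheroid and at 36.2 CPM or more in the 2D co-culture and the tumor, whereas the hydroxylases stay between 60.2 and 1403 CPM.

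**Figure D2:**
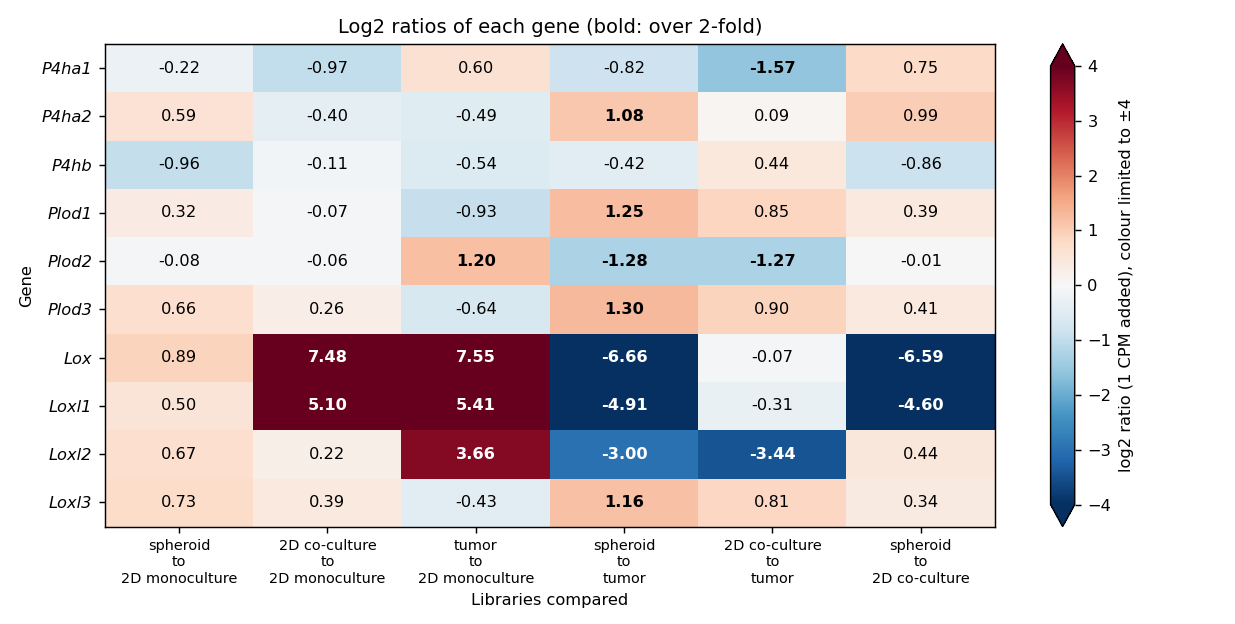
Log2 ratio of CPM (1 CPM added) for each gene (rows) in each of the 6 comparisons (columns), with red for higher and blue for lower in the library named first, and bold for over 2-fold. Lox and Loxl1 reach 7.55 and 5.41 for the tumor against the 2D monoculture, and P4hb is over 2-fold in no column.

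P4ha1, the main catalytic chain of prolyl 4-hydroxylase in most cells (mm10 chr10:59323296-59373304, plus strand), had 114 CPM in spheroid, 67.4 in 2D co-culture, 133 in 2D monoculture and 203 in tumor. It was thus highest in the tumor and lowest in the 2D co-culture, where its log2 ratio to the tumor was -1.59 (95% interval -1.62 to -1.55). All intervals cover counting error only, that is, the reads of these libraries and not the difference between cultures or animals.

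P4ha2, the other common catalytic chain (chr11:54100095-54131665, plus strand), had 128 CPM in spheroid, 64.1 in 2D co-culture, 84.8 in 2D monoculture and 60.2 in tumor. Its order was therefore not that of P4ha1: it was highest in the spheroid, at 2.13-fold its tumor level (log2 1.09, 1.05 to 1.12), and lowest in the tumor. The 2D co-culture was close to the tumor (log2 0.09, 0.05 to 0.13). That ratio turned to -0.18 with total counts and to -0.64 with the GC and length correction, so which of these 2 libraries was lower depends on the processing. Against the 2D co-culture the spheroid level was 2.00-fold higher, at the edge of the 2-fold limit.

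P4hb, which encodes protein disulfide isomerase and also serves the folding of many other secreted proteins (chr11:120560298-120573253, minus strand), had 721 CPM in spheroid, 1304 in 2D co-culture, 1403 in 2D monoculture and 964 in tumor. The spheroid value was the lowest, 1.95-fold under the 2D monoculture (log2 -0.96, -0.97 to -0.95). Per exon length, the reads of P4hb were 5.22 times those of the catalytic chains together in the spheroid, 5.58 times in the tumor, 10.7 times in the 2D monoculture and 16.9 times in the 2D co-culture. Per coding length these ratios were lower, in the same order of libraries 3.13, 3.79, 6.77 and 10.4. P4ha3, a catalytic chain that is not among the 10 genes, had no read in the spheroid and the 2D monoculture, 0.838 CPM in 2D co-culture and 4.96 in tumor.

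Plod1, the lysyl hydroxylase that acts on the helical part of collagen (chr4:147909753-147936767, minus strand), had 359 CPM in spheroid, 274 in 2D co-culture, 288 in 2D monoculture and 151 in tumor. The cultures lay close together and above the tumor, and the spheroid was 2.38-fold above it (log2 1.25, 1.23 to 1.27).

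Plod2, which hydroxylates the telopeptides, the chain ends where crosslinks form (chr9:92542223-92608428, plus strand), had 125 CPM in spheroid, 127 in 2D co-culture, 132 in 2D monoculture and 306 in tumor. The 3 cultures were within 1.05-fold of each other. The tumor was 2.31-fold above the 2D monoculture (log2 1.21, 1.19 to 1.23) and 2.44-fold above the spheroid (log2 ratio of spheroid to tumor -1.29, -1.31 to -1.26). The difference between the spheroid and the 2D co-culture (log2 -0.01, -0.05 to 0.02) was within the counting error.

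Plod3, which also has glucosyltransferase activity on hydroxylysine (chr5:136987019-136996648, plus strand), had 166 CPM in spheroid, 125 in 2D co-culture, 104 in 2D monoculture and 66.7 in tumor. Its order was spheroid, 2D co-culture, 2D monoculture, tumor, and the ends of that order were 2.49-fold apart (log2 1.31, 1.28 to 1.35). In the GENCODE annotation 529 exon bases of Plod3 are shared with Znhit1 on the other strand, and the library kit does not mark strand, so reads from these bases cannot be told apart by strand.

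Lox, the founding lysyl oxidase (mm10 chr18:52516067-52529867, minus strand), showed the widest range of the 10 genes. It had 1 read in the 2D monoculture (0.00702 CPM), 118 reads in the spheroid (0.867 CPM), 20533 reads in the 2D co-culture (179 CPM) and 30546 reads in the tumor (188 CPM). The 2D co-culture and the tumor were therefore nearly level (log2 -0.07, -0.09 to -0.04), and the other libraries lay far below both. The spheroid was 207-fold under the 2D co-culture (log2 -7.69, -7.97 to -7.43) and 217-fold under the tumor (log2 -7.76, -8.04 to -7.50). With 1 read in the 2D monoculture, the log2 ratios to it are loosely bounded, at 14.64 for the 2D co-culture (12.16 to 19.94), 14.71 for the tumor (12.23 to 20.01) and 6.95 for the spheroid (4.44 to 12.26).

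Loxl1, a lysyl oxidase known for its part in elastic fibres (chr9:58287738-58313186, minus strand), had 12 reads in the 2D monoculture (0.0842 CPM), 73 reads in the spheroid (0.536 CPM), 4140 reads in the 2D co-culture (36.2 CPM) and 7310 reads in the tumor (45.0 CPM). Like Lox, it was low in the first pair of libraries and high in the other. The spheroid was 67.5-fold under the 2D co-culture (log2 -6.08, -6.43 to -5.74), and the 2D co-culture was 1.25-fold under the tumor (log2 -0.32, -0.37 to -0.26). Against the 2D monoculture, the spheroid had a log2 ratio of 2.67 (1.78 to 3.69), and Lox and Loxl1 stayed inside the 2-fold count there only because 1 CPM was added to values under 1 CPM.

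Some but not all of the 9 fibroblast markers were high in the same libraries. Against the 2D monoculture, 8 of the 9 were higher in the tumor (14.8% of all genes), 5 in 2D co-culture (3.79%) and 3 in spheroid (11.2%). None was lower, beside 18.2%, 9.51% and 17.9% of all genes in the same order. Thy1, a fibroblast surface protein, had 0.0211 CPM in 2D monoculture, 0.286 in spheroid, 12.5 in 2D co-culture and 49.2 in tumor, and Col1a2, a chain of type I collagen, had 2.97, 4.05, 514 and 622 CPM in the same order. By contrast, Pdgfrb had 23.5 CPM in spheroid, 27.7 in 2D co-culture and 18.5 in tumor, and Pdgfra had 0.242, 2.51 and 20.6 CPM. Lum, Dcn and Postn were at 0.0873, 1.68 and 3.68 CPM in the 2D co-culture, against 30.9, 95.7 and 476 CPM in the tumor. The part of NIH/3T3 cells or RNA carried through the sort in the levels of Lox and Loxl1 was not tested.

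Col1a2 was the listed gene nearest to Lox in profile, so a near-constant ratio of the pair partly follows from that choice. Per 100 reads of Col1a2, the reads of Lox came to 34.9 (95% interval 34.3 to 35.5) in 2D co-culture, 30.3 (29.9 to 30.7) in the tumor, 21.4 (17.4 to 26.2) in spheroid and 0.236 (0.00597 to 1.32) in the 2D monoculture. Per 100 reads of Col3a1, another fibroblast collagen, they came in the same order to 338 (328 to 348), 14.4 (14.2 to 14.6), 38.1 (30.5 to 47.2) and 2.56 (0.0633 to 15.2). The ratio to Col3a1 thus differed widely between the 2D co-culture and the tumor.

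Loxl2, which acts on type IV collagen of basement membranes (chr14:69609068-69695834, plus strand), had 11.3 CPM in spheroid, 8.04 in 2D co-culture, 6.73 in 2D monoculture and 97.1 in tumor. Only the tumor stood apart, at 14.4-fold the 2D monoculture (log2 3.85, 3.76 to 3.95) and 8.62-fold the spheroid (log2 ratio of spheroid to tumor -3.11, -3.18 to -3.03), and unlike Lox the gene was not raised over 2-fold in the 2D co-culture (log2 0.26, 0.12 to 0.39). The summed endothelial, myeloid, skeletal muscle, fibroblast and melanocyte markers were all highest in the tumor too. Tek, an endothelial receptor, had 14.1 CPM in the tumor and at most 0.0514 CPM in the cultures. With 1 CPM added to each level, it was the listed gene with the profile nearest to that of Loxl2. The tumor then exceeded the 2D monoculture by log2 3.88 for Tek and 3.66 for Loxl2. Without the added 1 CPM these values were 8.97 (7.62 to 10.85) and 3.85, so their likeness depends on that setting. The part of host cells in the tumor level of Loxl2 was not tested.

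Loxl3, a lysyl oxidase with known roles in cartilage and palate development (chr6:83034173-83052562, plus strand), had 109 CPM in spheroid, 85.6 in 2D co-culture, 65.2 in 2D monoculture and 48.2 in tumor. It followed the order of Plod3, with the spheroid 2.26-fold above the tumor (log2 1.17, 1.13 to 1.21). Loxl3 shares 535 exon bases with Htra2 on the other strand, with the same limit as for Plod3.

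**Figure D3:**
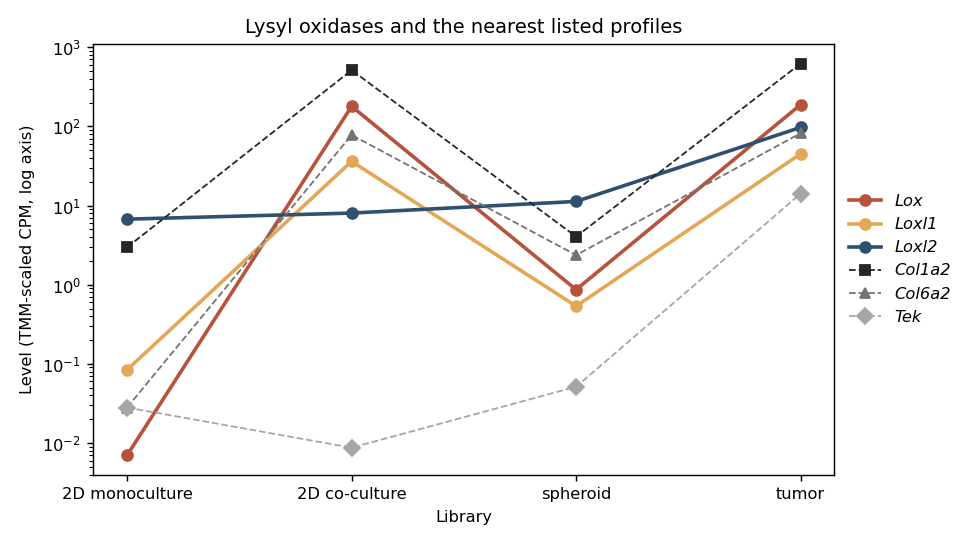
Level in TMM-scaled CPM on a log axis (y axis) of Lox, Loxl1 and Loxl2 (solid lines) and of the listed gene nearest in profile to each, Col1a2, Col6a2 and Tek (dashed lines), in the 4 libraries (x axis), where lines only join the values of 1 gene. Lox and Loxl1 peak with Col1a2 and Col6a2 in the 2D co-culture and the tumor, and Loxl2 stands at 97.1 CPM in the tumor and at 11.3 CPM or less in the cultures.

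Levels of different genes were compared per exon length. P4hb had the most reads per kilobase of the 10 genes in every library, from 252 CPM per kb in the spheroid to 490 CPM per kb in the 2D monoculture. Plod1 followed in the cultures, with 53.1 CPM per kb in spheroid, 40.5 in 2D co-culture and 42.6 in 2D monoculture, whereas Plod2 followed in the tumor with 56.8. The second place depends on the length used: per coding length Lox held it in 2D co-culture (145 CPM per kb, Plod1 125) and tumor (153 CPM per kb, Plod2 135). Of 36 pairs of genes next to each other in the orders per exon length, 2 had overlapping counting intervals, both in the spheroid: Loxl3 and Plod2 (23.6 and 23.3 CPM per kb), and Lox and Loxl1 (0.181 and 0.163 CPM per kb).

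Within families, the balance of catalytic prolyl 4-hydroxylase chains per exon length was 57.5% P4ha1 in spheroid, 60.9% in 2D co-culture, 70.4% in 2D monoculture and 81.4% in the tumor. P4ha1 exceeded P4ha2 by 1.35-fold in the spheroid and by 5.10-fold in the tumor. Per coding length P4ha1 was below P4ha2 in the spheroid (47.3% of the family, P4ha2 52.7%) and above it in the tumor (75.8%, P4ha2 22.4%). Plod2 made up 20.6% of the lysyl hydroxylase reads per length in the spheroid, 25.6% in 2D co-culture, 27.2% in 2D monoculture and 60.5% in the tumor, where it overtook Plod1 (23.8%). In each culture Plod1 was the largest of the family, with between 44.2% and 47.2%.

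Loxl3 made up 89.3% of the lysyl oxidase reads per length in the spheroid and 87.7% in the 2D monoculture, but 26.9% in 2D co-culture and 12.7% in the tumor. Lox was the largest member in the 2D co-culture (54.3%) and the tumor (47.8%), against 0.685% in spheroid and 0.00910% in the 2D monoculture. Loxl2 held 21.8% of the family in the tumor and at most 7.87% in the cultures. The whole family summed to 16.1 CPM per kb in 2D monoculture, 26.5 in spheroid, 69.1 in 2D co-culture and 82.4 in the tumor.

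**Figure D4:**
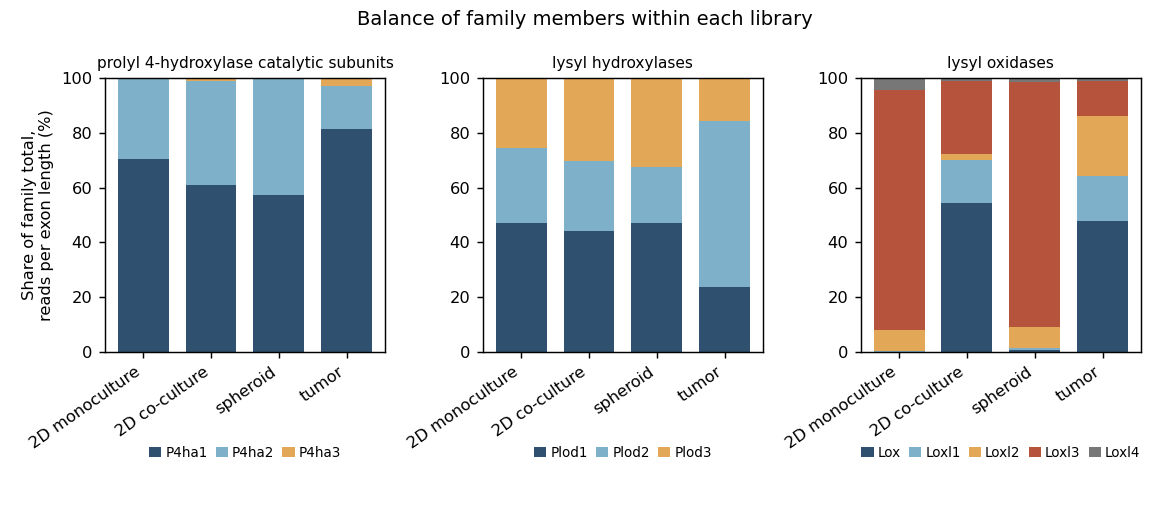
Share of each gene in its family's reads per exon length (y axis, percent) in each library (x axis), as stacked bars for the catalytic prolyl 4-hydroxylase chains, the lysyl hydroxylases and the lysyl oxidases. The tumor has the largest share of P4ha1 (81.4%) and of Plod2 (60.5%), and Loxl3 fills most of the lysyl oxidase bar in the 2D monoculture (87.7%) and the spheroid (89.3%).

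The ratios of spheroid to tumor were also set against the GC content of each gene's longest annotated transcript. Plod2 (43.0% GC), Lox (43.9%) and P4ha1 (45.7%) had the lowest GC content of the 10 genes, and the other 7 lay between 51.7% and 61.0%. Among all genes of the same class of GC content and length, the median log2 ratio of spheroid to tumor was -0.96 for the class of Plod2, -0.64 for that of P4ha1, 0.73 for that of P4ha2 and Plod1, 0.81 for that of Loxl3 and 1.48 for that of Plod3. Less its class median, the ratio of Plod2 became -0.33, that of P4ha2 0.36, that of Plod1 0.52, that of Loxl3 0.36 and that of Plod3 -0.16, so that none of these 5 genes remained over 2-fold. Genes of like composition thus differed in the same direction as each of these 5 genes, and the source of that trend was not tested. P4hb (-0.42, class median 0.83), Loxl1 (-6.39, class median 1.79) and Loxl2 (-3.11, class median 0.72) went against their classes.

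The differences of Lox (-7.28), Loxl1 (-8.18) and Loxl2 (-3.82) between spheroid and tumor stayed large after this correction, and P4hb came to -1.25. For the tumor against the 2D monoculture, Plod2 came just within 2-fold, and P4ha2, Plod3 and Loxl3, lower in the tumor as measured, turned to 0.32, 0.32 and 0.16. For the 2D co-culture against the tumor, Plod2 came to -0.59, P4ha1 to -1.37, Lox to 0.20 and Loxl1 to -1.45, so that the near-equal level of Loxl1 in these libraries did not hold after the correction. Library scaling also mattered: by total counts none of P4ha2, Plod1, Plod3 and Loxl3 was over 2-fold higher in the spheroid than in the tumor (log2 ratios of 0.73, 0.89, 0.96 and 0.82), and with TMM factors from genes expressed in the 2D monoculture only Plod3 was.

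**Figure D5:**
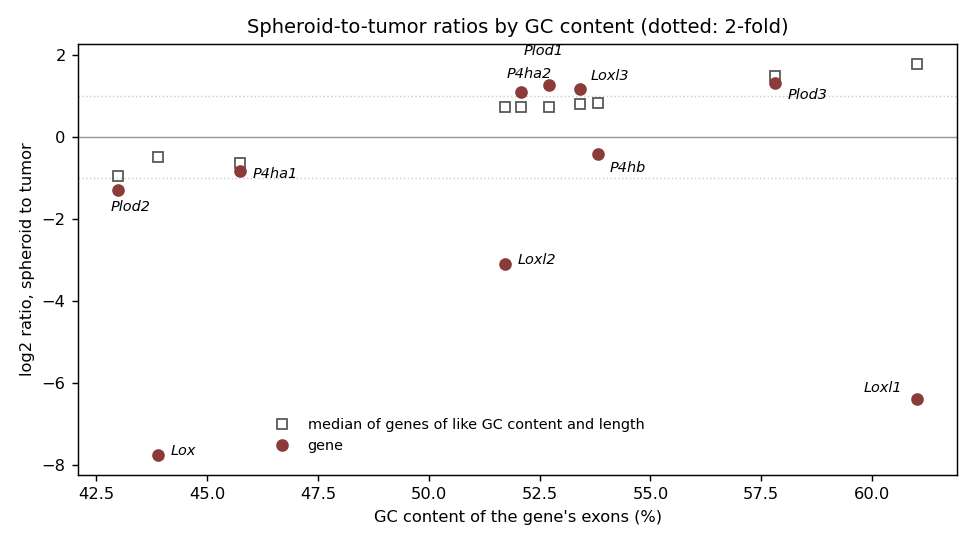
Log2 ratio of spheroid to tumor (y axis) against GC content in percent (x axis), taken over the exons of each gene's longest annotated transcript. Filled circles stand for the 10 genes and open squares for the median of all genes of like GC content and length. Plod2, P4ha1 and Plod3 lie near their squares, and Lox, Loxl1 and Loxl2 lie far below theirs.

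Of 27 other genes of collagen maturation (folding, further hydroxylation, export, propeptide cleavage and crosslinking), 23 had a mean of at least 1 CPM. Against the 2D monoculture, 2 were higher (11.2% of all genes) and 3 lower (17.9%) in the spheroid, and 4 higher (3.79%) and 5 lower (9.51%) in the 2D co-culture. In the tumor 4 were higher (14.8%) and 2 lower (18.2%). Between spheroid and tumor, 7 were higher (26.8% of all genes) and 7 lower (27.6%) in the spheroid, so near the shares over all genes. Between 2D co-culture and tumor 5 were higher (18.8%) and 6 lower (20.9%) in the 2D co-culture. Between spheroid and 2D co-culture 2 were higher (9.54%) and 3 lower (8.46%) in the spheroid. The list medians were 0.25, 0.30 and 0.29 against the 2D monoculture for spheroid, 2D co-culture and tumor, -0.00 and -0.02 for spheroid and 2D co-culture against the tumor, and -0.03 for spheroid against 2D co-culture.

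Serpinh1, the collagen chaperone HSP47, was the most abundant gene of the list, with 2879 CPM in spheroid, 2047 in 2D co-culture, 1604 in 2D monoculture and 1045 in tumor. P3h3, a prolyl 3-hydroxylase family member that acts with lysyl hydroxylase 1, had 131 CPM in spheroid, 95.4 in 2D co-culture and 47.7 in tumor, with the 2D monoculture between the last of these. Both genes thus had the order of Plod3 and Loxl3. P3h1, which 3-hydroxylates proline, had 146 CPM in spheroid and 41.0 in tumor. The GC content of Serpinh1, P3h3 and P3h1 was 56.4%, 61.7% and 56.4%. Whether their differences remain after the correction for GC content and length was not tested.

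Atp7a, the copper transporter that loads secreted copper enzymes including lysyl oxidase, had 20.3 CPM in spheroid, 32.9 in 2D co-culture, 87.9 in 2D monoculture and 161 in tumor. It was not high where Lox was high among the cultures: the 2D monoculture, with 1 read of Lox, had the most Atp7a. Adamts14, which cleaves the amino-terminal propeptide of collagen, had 99.8 CPM in 2D monoculture and 6.65 in tumor, and Adamts2, which does the same, was at 0.0140 and 27.1 CPM. Mia3, an export factor for large collagen cargo, had 154 CPM in 2D monoculture, 55.2 in 2D co-culture, 41.8 in spheroid and 94.0 in tumor. The GC content of Atp7a, Adamts14, Adamts2 and Mia3 was 44.6%, 59.5%, 54.2% and 45.8%, and the effect of the correction on them was likewise not tested.

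The substrates were counted as well. Of 44 collagen chain genes, 30 had a mean of at least 1 CPM. Of these, 8 were higher (11.2% of all genes) and 2 lower (17.9%) in the spheroid than in the 2D monoculture. Against the same library 12 were higher (3.79%) and none lower (9.51%) in the 2D co-culture, and 18 higher (14.8%) and 6 lower (18.2%) in the tumor. Their medians were 0.45, 0.72 and 1.63. The 8 chains Col1a1, Col1a2, Col3a1, Col5a1, Col5a2, Col6a1, Col6a2 and Col6a3 together had 74.7 CPM in spheroid, 993 in 2D co-culture, 47.7 in 2D monoculture and 3066 in tumor. The other chains summed to 694, 393, 273 and 833 CPM, led in the spheroid by Col4a1 of basement membranes with 220 CPM and Col5a3 with 138 CPM.

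Between spheroid and tumor, 7 chains were higher (26.8% of all genes) and 14 lower (27.6%) in the spheroid (median -0.72). Between 2D co-culture and tumor, 2 were higher (18.8%) and 12 lower (20.9%) in the 2D co-culture (median -0.25). Between spheroid and 2D co-culture 4 were higher (9.54%) and 11 lower (8.46%) in the spheroid (median -0.16). The largest difference was that of Col3a1, with 2.28 CPM in spheroid and 1307 in tumor.

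Of 12 targets of hypoxia-inducible factors, 7 were higher (11.2% of all genes) and none lower (17.9%) in the spheroid than in the 2D monoculture. Against the same library 1 was higher in the 2D co-culture (3.79%) and 6 were higher in the tumor (14.8%). The medians were 1.10, 0.55 and 1.09. Car9, a carbonic anhydrase used as a hypoxia marker, had 65.2 CPM in spheroid, 18.3 in 2D co-culture, 10.1 in 2D monoculture and 175 in tumor. Ndrg1 had 250, 39.3, 48.0 and 71.9 CPM in the same order. The 3 most abundant targets went the other way within 2-fold. Ldha, Pgk1 and Ero1l had 2138, 1296 and 420 CPM in spheroid, and 2573, 1763 and 560 CPM in 2D monoculture. Slc2a1 and Pdk1 were higher in the spheroid within 2-fold. In the spheroid, where these 7 targets were higher, P4ha1, P4ha2, Plod2 and Loxl2 had log2 ratios to the 2D monoculture of -0.22, 0.59, -0.08 and 0.74, all within 2-fold, and Lox, with few reads in both libraries, had 6.95. With the correction for GC content and length P4ha1, P4ha2, Plod2, Loxl2 and Lox came to 0.05, 0.57, 0.63, 0.61 and 7.24. The ratios of the hypoxia targets were not corrected in this way. Between spheroid and tumor 2 targets were higher (26.8% of all genes) and 2 lower (27.6%) in the spheroid (median -0.49). Between 2D co-culture and tumor none was higher (18.8%) and 3 were lower (20.9%) in the 2D co-culture (median -0.81). Between spheroid and 2D co-culture 4 were higher (9.54%) and none was lower (8.46%) in the spheroid (median 0.69).

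Among 100 listed genes averaging 1 CPM or more, likeness of profile was measured as the Euclidean distance of the 4 log2 levels (1 CPM added), each less its own mean. Nearest were Col1a2 to Lox (distance 0.42), Col6a2 to Loxl1 (0.98) and Tek to Loxl2 (0.63). P3h3 was the nearest to Plod3 (0.11), to Loxl3 (0.21) and to Plod1 (0.37). For the other genes they were Tgm2 for P4ha1 (0.58), Col2a1 for P4ha2 (0.33), Dct for P4hb (0.60) and Tyr for Plod2 (0.44). With 4 libraries, these distances describe the libraries and say nothing of shared control.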

How the data were processed

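The authors deposited read counts per gene symbol for the 4 libraries, whole numbers without normalization. The submitters' processing notes name Trimmomatic, STAR, featureCounts and the mm10 build, and the annotation is given only as refGene. Libraries were made from poly(A) RNA with a kit that does not mark strand and sequenced as pairs of 150 bases. Every column was matched to its condition by its label.

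Counts were scaled to CPM by TMM factors from edgeR 4.0.16 in R 4.3.3, and the rest with Python 3.11.15, numpy 2.4.6, pandas 2.3.3, scipy 1.17.1 and matplotlib 3.10.9. A count of 0 allows up to 3 reads, or 0.0185 to 0.0262 CPM. Intervals are at 95%, exact Clopper-Pearson for levels and from the exact binomial share of reads for ratios. Single ratios used no pseudocount, and counts over 2-fold and medians used 1 CPM. With 1 library a condition, no test was run. Exon lengths, GC content and gene positions came from GENCODE M21 on GRCm38 (mm10), which covered 99.6% of genes averaging 1 CPM or more. The GC content was that of the longest transcript of each gene. The correction removed the median log2 ratio of each of 10 GC classes by 10 length classes. The steps were tested on simulated data.

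The 10 genes and the lists were chosen with earlier results of these data known. The naming rule took all 10 genes, the 3 most abundant genes of each list and the nearest profile of each of the 10. It also took the 2 genes furthest higher and lower per list and comparison among those with a mean of at least 10 CPM. Not every gene that the rule gives is named in the text, and no gene of the myeloid and skeletal muscle lists is. From outside that rule, P4ha3, Adamts2, Thy1, Lum, Pdgfra, Pdgfrb, Col5a2, Fbln2, Prrx1, Slc2a1 and Pdk1 were named after their values were seen. Alternatives were other scalings (DESeq2 1.42.0 size factors, total counts, upper quartiles and TMM over other genes), a pseudocount of 0.1 CPM, other gene filters, a 1.5-fold limit, the GC and length correction and coding length.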

Additional observations from a re-analysis of the deposited data

How the results depend on the processing

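No paired analysis was possible because there is 1 library a condition, and for the same reason none could be left out. Of 450 log2 ratios of the 10 genes under the alternatives, 429 kept their sign and 21 did not. Of the called ones, Plod3 between spheroid and tumor turned from 1.31 to -0.16 with the GC and length correction, as its class median of 1.48 shows. Shares of all genes under the same setting stand in brackets. Genes higher in the spheroid than in the tumor, 4 as reported, were 1 with TMM factors over genes expressed in the 2D monoculture (21.3%), 0 with total counts (19.4%) and 0 with the correction (17.1%). P4ha1 became lower there with that TMM (31.8%) and with total counts (33.5%), and P4hb with the correction (21.9%). In the spheroid against the 2D monoculture, where none was called, 2 were higher with a pseudocount of 0.1 CPM (Lox and Loxl1; 13.6%) and 1 with the correction (Lox; 9.26%), and 1 was lower (P4hb) with total counts (19.99%) or the correction (11.7%). In the 2D co-culture against the 2D monoculture, 1 was lower with total counts (P4ha1; 9.92%). With the correction P4hb was also lower in the spheroid against the 2D co-culture (6.84%), and Loxl1 in the 2D co-culture against the tumor (18.95%). With a 1.5-fold limit, which by its construction calls more genes, 5 were higher (25.9%) and 1 lower (27.1%) in the spheroid and 1 lower in the 2D co-culture (19.3%) against the 2D monoculture, 2 lower in the tumor against the 2D monoculture (32.3%), 3 higher in the 2D co-culture against the tumor (32.4%) and 2 higher in the spheroid against the 2D co-culture (19.98%). TMM factors of the 3 cultures alone, an alternative chosen after seeing the data, changed no call.

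Scaling moved the median of all genes for the spheroid against the tumor from 0.08 to -0.25 with total counts and -0.17 with TMM over genes expressed in the 2D monoculture, for the 2D co-culture against the tumor from 0.11 to -0.14 and -0.11, and for the tumor against the 2D monoculture from -0.14 to 0.08 and 0.11. Of genes called, the share called higher in the tumor against the 2D monoculture was 44.8%, and 59.9% and 62.4% with these scalings (60.5% with upper quartiles, and higher still with the correction). For the spheroid against the tumor it was 49.2%, and 36.7% with total counts, for the 2D co-culture against the tumor 47.3%, and 32.6% with total counts, 34.1% with that TMM and 32.3% with the correction, and for the 2D co-culture against the 2D monoculture 28.5%, and 39.0% with upper quartiles. With coding length in place of exon length, 20 of 40 ranks of the genes within a library moved. Depth limits the ratios of Lox and Loxl1 to the 2D monoculture, with 1 and 12 reads there.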

Other observations

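Lox and Loxl1 were not alone in their pattern. With limits chosen after seeing the data, 26 genes had at least 10 CPM in the 2D co-culture and under 0.1 CPM in the 2D monoculture. Lox had the highest level of them in the 2D co-culture and Loxl1 was the gene of rank 7. Others were Col6a2 (78.0 CPM in the 2D co-culture) and Col5a2 (37.5 CPM), chains of collagen types VI and V, Fbln2 (50.3 CPM), a basement membrane and elastic fibre protein, Prrx1 (22.7 CPM), a transcription factor of mesenchyme, and Thy1 (12.5 CPM). Of the 26 genes, 24 were under 1 CPM in the spheroid and 17 were at or above 10 CPM in the tumor.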
